A study of Mus musculus with 15 samples.

Results

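Messenger RNA of the TGF-beta ligands, their receptors, the activin subunits and follistatin was followed in whole mouse liver at 2 ages and with and without S6 kinase 1 (S6K1). The 10 genes were taken by name (Tgfb1, Tgfb2, Tgfb3, Tgfbr1, Tgfbr2, Inhba, Inhbb, Inhbc, Inhbe and Fst) from a table of 37991 genes. No cutoff on their values was used, but earlier results of these data were known when they were chosen. All 10 were abundant enough to enter the test. The study asked how the loss of S6K1, encoded by Rps6kb1, altered the aged liver. Livers came from 3 groups of 5 chow-fed female mice of the C57BL/6 strain, WT and KO both bred from heterozygous parents: young WT mice of 90 days with both Rps6kb1 alleles intact, old WT mice of 600 days, and old KO mice of 600 days that lacked S6K1 in the whole body. No young KO mice were sequenced, so a difference between old KO and old WT was measured at 600 days alone, and because the deletion was not restricted to the liver it cannot be assigned to a cell type.

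TGF-beta is secreted by many liver cells in a latent form and, once released, binds the type II receptor (Tgfbr2), which recruits and phosphorylates the type I receptor (Tgfbr1), which in turn phosphorylates the transcription factors SMAD2 and SMAD3. Activins are dimers of inhibin beta subunits that use other receptors of the same family and the same SMADs, and follistatin (Fst) is a secreted protein that binds activins and keeps them from their receptors. In liver, TGF-beta is best known for driving stellate cells to make collagen, activin A limits hepatocyte growth, and the beta C and beta E subunits (Inhbc and Inhbe) are made mainly by hepatocytes.

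The promoters of 3 of these genes are shown here because Tgfbr2 was the only gene of the 10 whose level passed the test with age, and Inhbc and Inhbe were the most abundant of the 10. Each is a RefSeq window on GRCm38.p6 from 250 bases before to 50 bases after the start of the gene, written 5′ to 3′ on the strand of the gene, with capitals marking matches to CAGAC or its complement GTCTG (the CAGA-type element of SMAD3 and SMAD4) and to TGATGCAA or its complement TTGCATCA (a composite element of C/EBP and ATF factors). Tgfbr2 lies at chr9:116175314-116175613 on the minus strand, Inhbc at chr10:127370499-127370798 on the minus strand and Inhbe at chr10:127351799-127352098 on the minus strand.
Tgfbr2: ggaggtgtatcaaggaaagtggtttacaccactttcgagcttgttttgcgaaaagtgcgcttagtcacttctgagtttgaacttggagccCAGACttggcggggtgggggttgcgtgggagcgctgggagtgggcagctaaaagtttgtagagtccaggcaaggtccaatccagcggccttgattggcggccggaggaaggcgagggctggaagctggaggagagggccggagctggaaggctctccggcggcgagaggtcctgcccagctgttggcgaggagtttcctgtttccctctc
Inhbc: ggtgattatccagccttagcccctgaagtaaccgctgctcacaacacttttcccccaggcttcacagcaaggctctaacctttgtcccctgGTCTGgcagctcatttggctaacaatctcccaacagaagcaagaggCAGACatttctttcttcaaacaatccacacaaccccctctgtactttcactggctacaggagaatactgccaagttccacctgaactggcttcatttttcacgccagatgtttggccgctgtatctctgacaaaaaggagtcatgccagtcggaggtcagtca
Inhbe: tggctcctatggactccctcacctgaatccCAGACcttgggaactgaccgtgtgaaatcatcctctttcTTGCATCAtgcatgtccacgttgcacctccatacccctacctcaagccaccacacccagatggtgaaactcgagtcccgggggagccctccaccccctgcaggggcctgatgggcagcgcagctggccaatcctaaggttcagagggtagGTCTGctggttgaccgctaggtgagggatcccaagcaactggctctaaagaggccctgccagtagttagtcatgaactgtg
The Tgfbr2 window held 1 CAGAC match, and the Inhbc and Inhbe windows held 2 each. Such a match was present in 49.6% of 32851 promoter windows of this length, so its presence here is ordinary. The Inhbe window also held the composite element once, at position −181 from the start, which 0.895% of all windows did, while the Inhbc window held none. These matches describe letters in a window, and binding was not measured. Windows were found for 8 of the 10 genes, with none for Tgfb3 and Fst.

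Sequencing depth was uneven between the groups, and 4 of the 5 young WT libraries were deeper than every old KO library. The young WT libraries held between 21801754 and 38065359 counted reads, those of old WT between 27063911 and 31990482, and those of old KO between 21984658 and 27923739. Rps6kb1 itself checked the labels. In CPM, the reads of a gene scaled to a common library total, the young WT livers spanned 33.3 to 41.4, the old WT livers 34.6 to 45.4 and the old KO livers 15.2 to 20.8, so that every old KO liver lay below every WT liver (log2 fold change −1.17 ± 0.0979 SE against old WT, edgeR adjusted p = 8.54e-06). Marker genes of hepatocytes summed to 93800 to 158000 CPM per library against 146 to 276 CPM for stellate cells and 176 to 419 CPM for endothelial cells, as the label of whole liver implies. In such bulk RNA, fewer cells of a type and less RNA per cell cannot be told apart. Young WT 6, the shallowest library, had the lowest hepatocyte sum (93800 CPM), and old WT 7 had the highest T cell sum (30.2 CPM against 14.4 to 21.6 in the other 14 libraries), so values without one or both are given beside the results for Tgfbr2, Tgfb2, Tgfb3, Inhbc, Inhbe and Fst. A single gene weighs heavily in each of these sums: Alb averaged 89900 CPM in young WT, and Zap70, a T cell marker, averaged 11.9 CPM in old WT.

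The activin subunits made chiefly by hepatocytes were by far the most abundant transcripts of the group. Per kilobase of exon, the mean over the 15 libraries was 33.0 CPM per kb for Inhbc and 27.8 CPM per kb for Inhbe, and Inhbc and Inhbe together held 91.6% to 97.2% of the summed level of the 4 activin subunits in every library. Inhbc exceeded Inhbe in 10 of 15 libraries, so their order is not settled. The receptors followed, with 6.48 CPM per kb for Tgfbr1 and 2.69 CPM per kb for Tgfbr2, each order holding in 15 of 15 libraries.

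Below the receptors the levels per kilobase ran close together. Tgfb1 averaged 2.09 CPM per kb, under Tgfbr2 in 11 of 15 libraries, and Inhba averaged 1.91 CPM per kb, under Tgfb1 in 10. Fst (1.66 CPM per kb) and Inhbb (0.792 CPM per kb) came next, and Fst was the higher in only 9 of 15 libraries. The least abundant were Tgfb3 at 0.432 CPM per kb and Tgfb2 at 0.123 CPM per kb, with Tgfb2 the lower in all 15 libraries. Among the 3 TGF-beta ligands, the order of mean levels was thus Tgfb1, Tgfb3, Tgfb2.

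**Figure D1:**
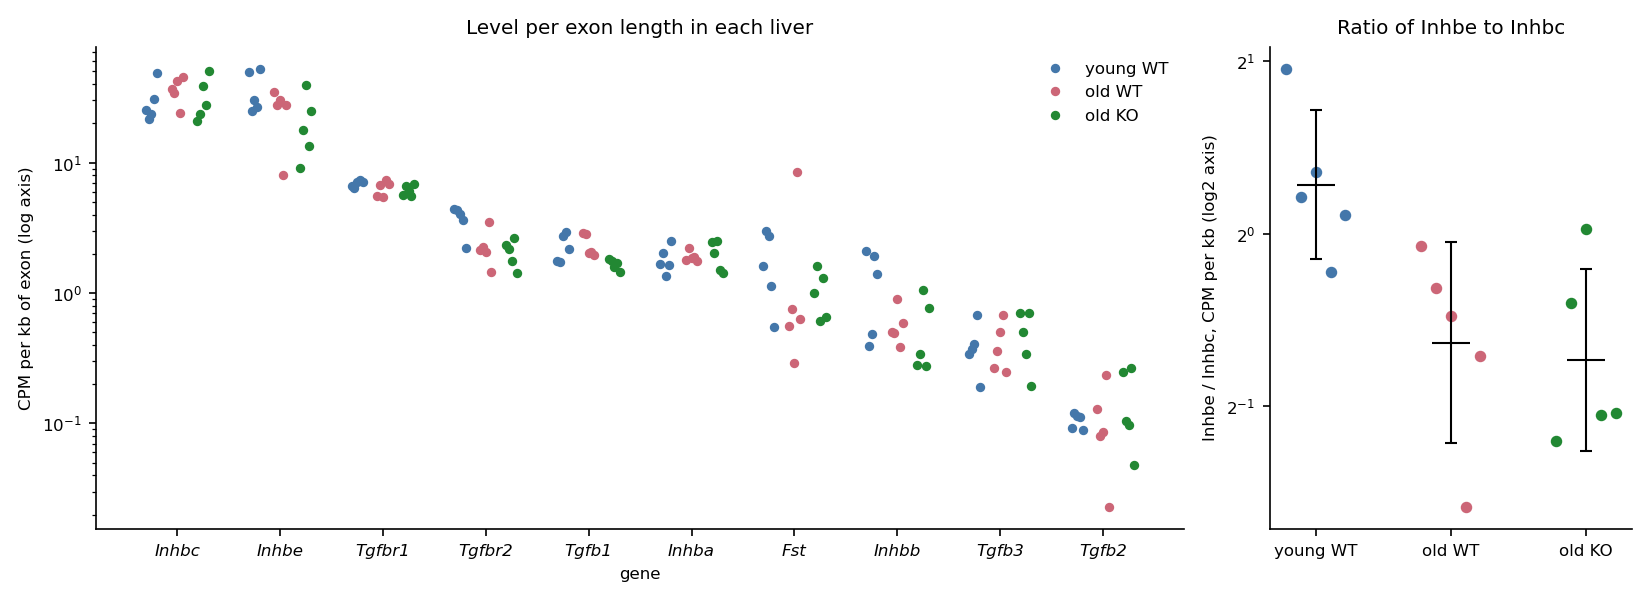
Left, level of each of the 10 genes in CPM per kb of exon (log axis), with 1 point per liver and genes ordered by their mean over 15 libraries. Right, ratio of Inhbe to Inhbc in each liver (log2 axis), with the bar and whiskers giving mean ± SD of the log2 ratio (n = 5): Inhbc and Inhbe lie highest, at means of 33.0 and 27.8 CPM per kb, and the ratio spans 0.857 to 1.94 for young WT livers, 0.333 to 0.952 for old WT livers and 0.434 to 1.02 for old KO livers.

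With age, 1 of the 10 genes passed the test and it was lower: Tgfbr2. Against all tested genes this is an unremarkable share, since 18.8% of 14258 genes were called between old WT and young WT (9.92% higher and 8.91% lower). The median log2 fold change of the 10 was 0.05, beside 0.01 over all genes, with 6 fitted above 0 and 4 below. For none of the 10 were the old WT and young WT livers free of overlap, beside 5.78% of all genes higher and 5.67% lower without overlap. Between old KO and old WT none of the 10 passed the edgeR test and DESeq2 called none either, while 1 had an unadjusted p under 0.05, beside 11.6% of all genes. There the background of calls was itself only 0.533%, and the median of the 10 was −0.11 against 0.0 over all genes. Old KO against young WT, where age and genotype both differ, also gave 1 call (Tgfbr2, lower) with a background of 23.3%. There 3 of the 10 had an unadjusted p under 0.05, beside 36.8% of all genes, and none was free of overlap, beside 7.32% higher and 6.56% lower. That comparison shares its young livers with the age comparison and its KO livers with the genotype comparison, so it is not a further independent test of either.

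**Figure D2:**
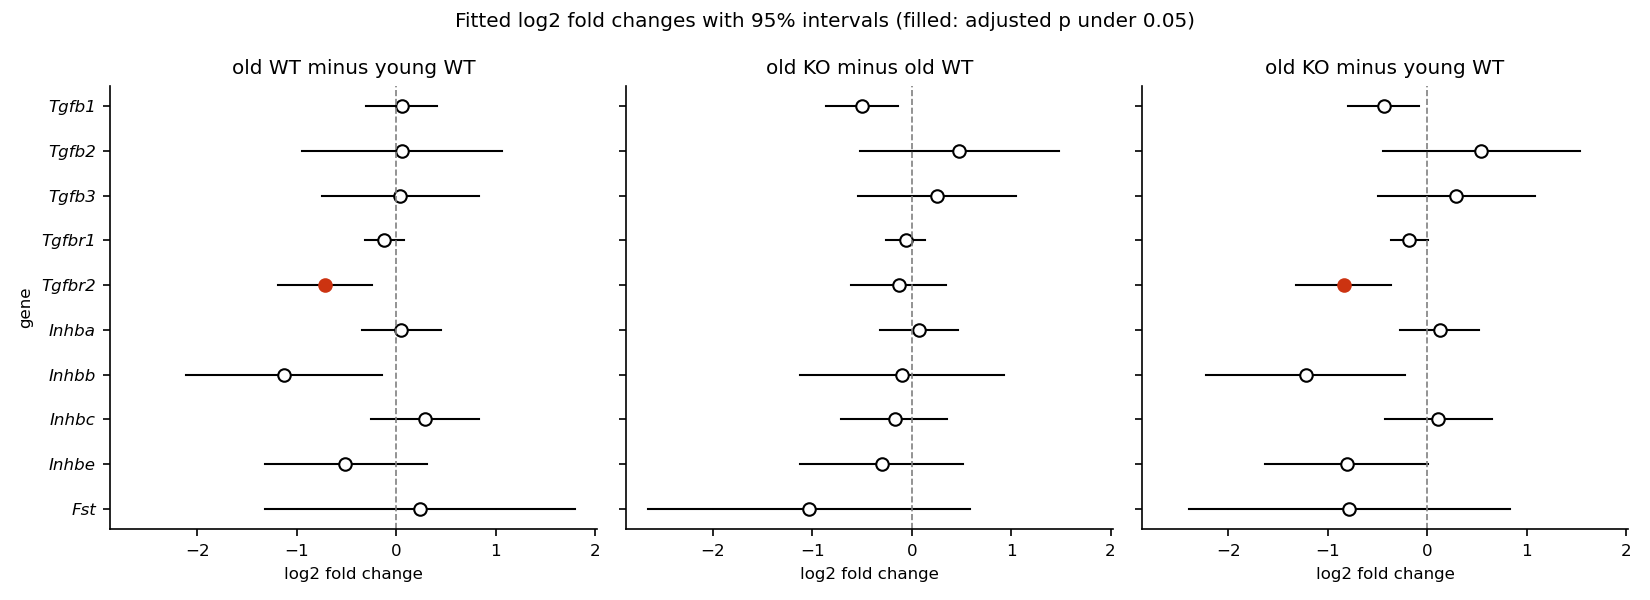
Fitted log2 fold change of each gene with its 95% interval in the 3 comparisons, where filled points passed adjusted p of 0.05. Tgfbr2 is the filled point, at −0.71 in old WT against young WT and −0.84 in old KO against young WT, and the interval of Tgfb1 in old KO against old WT, −0.86 to −0.14, lies below 0 although its adjusted p of 0.231 did not pass.

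Tgfbr2, the receptor that binds TGF-beta and starts the signal, was lower in old liver of either genotype than in young liver. It lies at chr9:115993415-116084383 (mm9, minus strand), and no other annotated gene overlaps it. In the young WT livers it stood at 35.9, 34.7, 32.6, 29.4 and 17.8 CPM (replicates 1, 2, 3, 4 and 6). In the old WT livers it stood at 17.3, 18.2, 16.6, 28.2 and 11.6 CPM (replicates 1, 4, 5, 7 and 10). In the old KO livers it stood at 18.9, 17.7, 14.2, 21.5 and 11.5 CPM (replicates 1, 2, 4, 5 and 6). Each old WT and each old KO liver lay below the young WT median, but the groups overlapped through young WT 6, which was as low as the old livers, and old WT 7, which was nearly as high as the young.

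The mean fell from 30.1 ± 7.31 CPM (SD, n = 5) in young WT to 18.4 ± 6.04 CPM in old WT, a log2 fold change of −0.71 ± 0.224 SE (edgeR quasi-likelihood test, adjusted p = 0.0364), or 0.61 of the young level. In old KO the mean was 16.8 ± 3.94 CPM, −0.84 ± 0.225 SE on the log2 scale against young WT (adjusted p = 0.0139) and −0.13 ± 0.226 SE against old WT (interval −0.61 to 0.35, adjusted p = 0.885). The age call was close to the threshold. Leaving out any of the other 8 young or old WT libraries ended it, at log2 fold changes of −0.73 to −0.59 and adjusted p of 0.0534 to 0.0886, whereas it stood at −0.84 (adjusted p = 0.0093) without young WT 6 and at −0.91 (adjusted p = 0.00728) without old WT 7. The call in old KO against young WT was kept whichever of the 15 libraries was left out (adjusted p 0.00344 to 0.0384).

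Markers of the non-parenchymal cells known to carry this receptor moved in part with it. The sum of 10 endothelial markers was 236 to 419 CPM in young WT and 176 to 309 CPM in old WT. Of the 10, 3 (Stab1, Stab2 and Lyve1) were called lower with age, beside 8.91% of all genes. A log2 fold change below 0 was fitted for 9 of the 10, beside 6959 of all 14258 genes, and 1 was above 0 (Clec4g, 0.09, edgeR adjusted p = 0.785). Within the young livers neither the endothelial nor the stellate marker sum followed Tgfbr2. Young WT 1 and 2, highest in Tgfbr2, had the lowest endothelial sums of that group (271 and 236 CPM) and its lowest stellate sums (217 and 223 CPM). Reln (mean 78.0 CPM in young WT) and Rgs5 (60.9 CPM) weigh heavily in the stellate sums, which need not speak for each marker. The sum of 10 stellate markers was 217 to 276 CPM in young WT and 146 to 243 CPM in old WT. Among them 2 were called lower (Reln and Hgf) and 1 higher (Cygb), beside 8.91% and 9.92% of all genes. None of these markers was at 0 in all libraries, and the part of cell composition in the Tgfbr2 result was not tested.

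The tested genes whose profile over the 15 libraries was nearest to that of Tgfbr2, by the root mean square difference of log2 CPM after each gene was centred on its own mean, were Pdgfra (0.204), Fbxo44 (0.206) and Mgat5 (0.207), where Tgfbr2 itself varied with an SD of 0.52. Pdgfra encodes a PDGF receptor of stellate cells and fibroblasts and is also one of the 10 stellate markers, Fbxo44 encodes an F-box protein, and Mgat5 a glycosyltransferase that branches N-glycans. Their mean CPM in young WT, old WT and old KO was 16.2, 12.0 and 11.8 for Pdgfra, 4.11, 2.74 and 2.45 for Fbxo44, and 5.27, 3.7 and 3.53 for Mgat5. Since the genes were picked by nearness over these same libraries, means that run parallel to Tgfbr2 follow from the choice. With age Mgat5 was called (edgeR adjusted p = 0.0306), while Pdgfra and Fbxo44 were not (adjusted p = 0.18 and 0.0993).

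Tgfbr1 (chr4:47366094-47427803, plus strand), the type I receptor kinase, was among the steadiest of the 10 genes. It ranged from 42.0 to 48.5 CPM (median 46.0) in young WT, from 35.5 to 48.2 CPM (median 43.7) in old WT and from 36.3 to 44.6 CPM (median 39.4) in old KO, and all 3 ranges overlapped. The log2 fold change was −0.12 ± 0.0913 SE with age (interval −0.31 to 0.08, adjusted p = 0.393) and −0.06 ± 0.0915 SE with genotype (interval −0.26 to 0.13, adjusted p = 0.858). Whether the age difference was larger in Tgfbr2 than in Tgfbr1 was not tested.

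**Figure D3:**
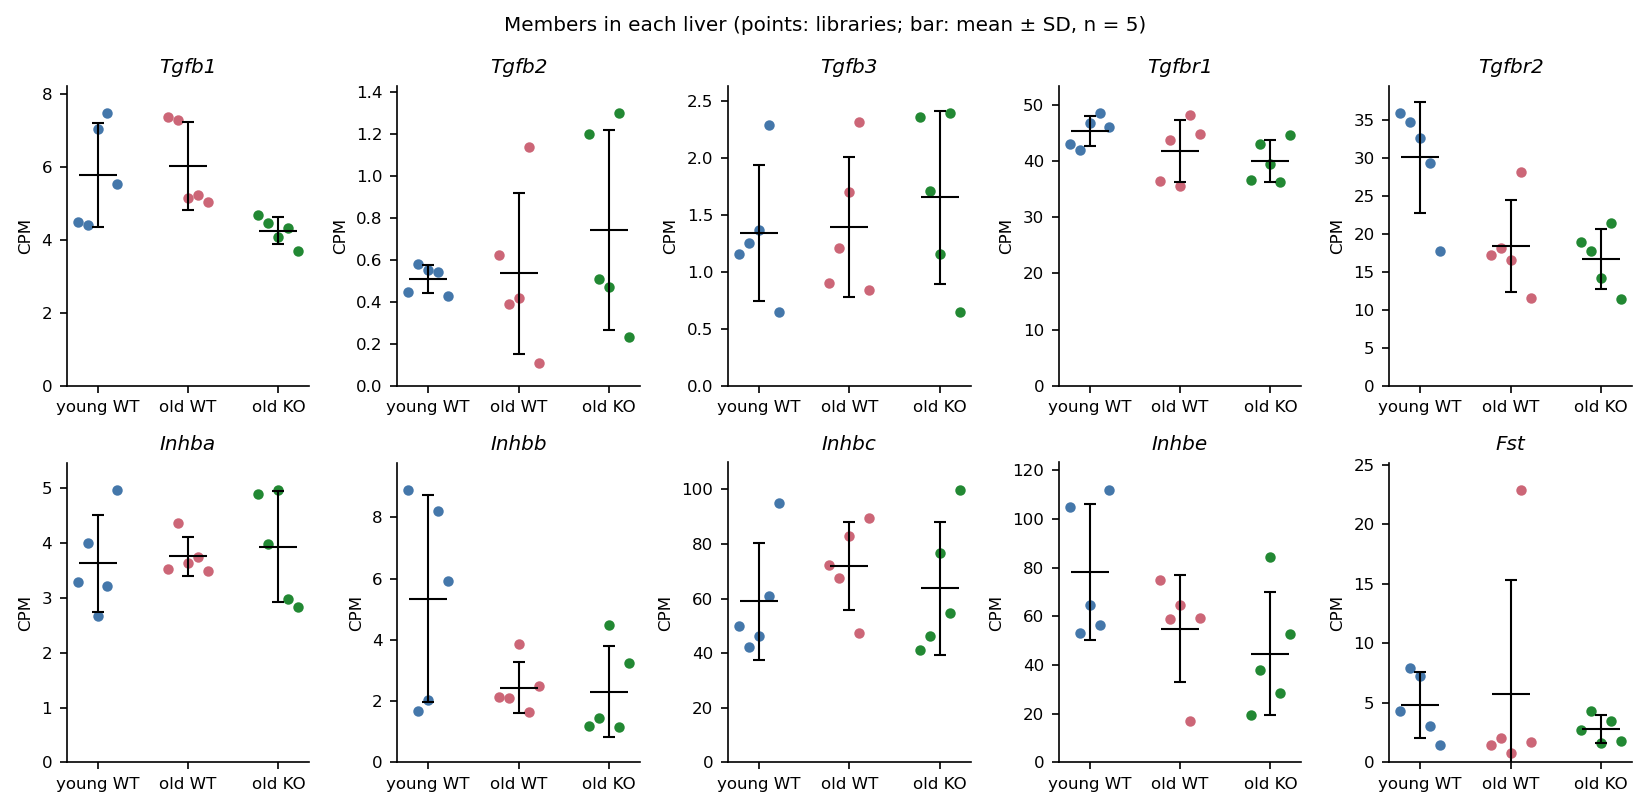
CPM of the 10 genes in each of the 15 livers (points) with mean ± SD per group (n = 5), on axes that start at 0. Tgfbr2 is high in 4 of 5 young WT livers, Tgfb1 is low in all 5 old KO livers (3.71 to 4.68 CPM), and Fst is dominated by the 22.9 CPM of old WT 7.

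Among the ligands, Tgfb1 (chr7:26472021-26490096, plus strand), the main TGF-beta of inflammation and fibrosis and made by macrophages among other cells, was at its lowest in old KO. The young WT livers held 4.5, 4.4, 7.04, 7.47 and 5.52 CPM. The old WT livers held 7.37, 7.29, 5.16, 5.24 and 5.04 CPM, and the old KO livers held 4.68, 4.47, 4.07, 4.32 and 3.71 CPM. Every old KO liver was below every old WT liver, whereas young WT overlapped both, with 2 young livers as low as the old KO group. Tgfb1 was the only gene of the 10 without overlap between old WT and old KO, where 3.2% of all tested genes did not overlap (2.08% lower in KO).

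The mean Tgfb1 level was 6.02 ± 1.2 CPM in old WT and 4.25 ± 0.374 CPM in old KO, a log2 fold change of −0.5 ± 0.17 SE with an interval of −0.86 to −0.14. It did not pass after adjustment (edgeR unadjusted p = 0.00951, adjusted p = 0.231), and leaving out each library in turn gave −0.56 to −0.42 with adjusted p of 0.206 to 0.472. Against young WT the old KO level differed by −0.44 ± 0.17 SE (adjusted p = 0.0704), which passed without young WT 1 (−0.52, adjusted p = 0.0482) or without young WT 2 (−0.53, adjusted p = 0.0421). With age alone the log2 fold change was 0.06 ± 0.167 SE (interval −0.3 to 0.41, adjusted p = 0.839).

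Macrophage markers were also lower in old KO. The 13 markers summed to 161 to 242 CPM in old KO and 283 to 657 CPM in old WT, and 7 of the 13 were called lower in old KO, beside 0.421% of all genes. The old WT livers highest in Tgfb1, 1 and 4, also had the highest macrophage sums (512 and 657 CPM), and the young WT livers lowest in Tgfb1, 1 and 2, had the lowest sums of their group (258 and 224 CPM). Other livers did not follow this order, since old WT 10, lowest in Tgfb1 of its group, had a sum of 466 CPM and old WT 5 the lowest sum, 283 CPM. With age 12 of the 13 markers had a log2 fold change above 0 (median 0.46), beside 7299 of all 14258 genes. Of the 13, 2 were called higher, beside 9.92% of all genes. The log2 fold change of Tgfb1 with age was 0.06. The defining Kupffer cell marker Clec4f was called lower in old KO at 0.416 of its old WT level, and Cd5l at 0.361. The part of macrophage content in the Tgfb1 difference was not tested.

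Tgfb2 (chr1:188447065-188529871, minus strand) and Tgfb3 (chr12:87397694-87419991, minus strand), the other isoforms, were scarce and variable. Tgfb2 ranged from 0.431 to 0.58 CPM in young WT, from 0.11 to 1.14 CPM in old WT and from 0.232 to 1.3 CPM in old KO, which corresponds to 3 to 32 reads per library. The young livers lay close together and the old livers of both genotypes spread to either side of them. Log2 fold changes were 0.06 ± 0.477 SE with age and 0.48 ± 0.471 SE with genotype (adjusted p = 0.947 and 0.765). An intronic small nucleolar RNA on the opposite strand lies within Tgfb2 and shares no exon with it.

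Tgfb3 ranged from 0.647 to 2.29 CPM in young WT, 0.845 to 2.31 CPM in old WT and 0.65 to 2.39 CPM in old KO. Its log2 fold changes, 0.04 ± 0.374 SE with age and 0.25 ± 0.374 SE with genotype (adjusted p = 0.956 and 0.858), were smaller than the spread within any group. The age values of both isoforms turned negative without old WT 7, to −0.38 for Tgfb2 and −0.2 for Tgfb3. In old WT 7 both were at their highest of the group, and in young WT 6 and old WT 10, Tgfb2 and Tgfb3 were at the lowest of theirs. At these counts a moderate change was not detectable, the intervals for genotype reaching from −0.52 to 1.48 for Tgfb2 and from −0.54 to 1.05 for Tgfb3.

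The hepatocyte activin subunits sit side by side on chromosome 10. Inhbe (chr10:126786458-126788828) and Inhbc (chr10:126793384-126807600) lie on the minus strand with 4555 bases between them, and neither overlaps another gene. Inhbc stood at 49.9, 42.4, 46.5, 60.9 and 95.2 CPM in young WT. It stood at 72.3, 67.5, 82.8, 47.5 and 89.5 CPM in old WT and at 41.3, 46.3, 76.7, 54.8 and 99.9 CPM in old KO. The ranges overlapped in all 3 groups, with 1 young and 1 old KO liver above every old WT liver. The log2 fold change was 0.29 ± 0.255 SE with age (adjusted p = 0.455) and −0.17 ± 0.255 SE with genotype (adjusted p = 0.856). Single libraries moved both values, to 0.54 (adjusted p = 0.114) with age without young WT 6 and to −0.3 (adjusted p = 0.712) with genotype without old WT 7.

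Inhbe, which encodes the subunit of activin E, a hepatokine that acts on adipose tissue, stood at 105, 53.2, 64.6, 56.6 and 112 CPM in young WT. It stood at 74.8, 59.0, 64.6, 17.2 and 59.4 CPM in old WT and at 19.5, 38.1, 84.5, 28.7 and 52.8 CPM in old KO. The 2 highest livers were young and 4 of 5 old KO livers were below the old WT median, but again all groups overlapped. The means were 78.3 ± 27.9, 55.0 ± 22.1 and 44.7 ± 25.4 CPM in young WT, old WT and old KO. The log2 fold change was −0.51 ± 0.384 SE with age (adjusted p = 0.377), −0.3 ± 0.386 SE with genotype (adjusted p = 0.829) and −0.81 ± 0.387 SE for old KO against young WT (adjusted p = 0.141). Without old WT 7 the value with age was −0.27 (adjusted p = 0.607) and that with genotype −0.53 (adjusted p = 0.586), and without young WT 6 the value with age was −0.34 (adjusted p = 0.577). Old KO against young WT passed only without old KO 4, the old KO liver with the highest Inhbe (−1.17, adjusted p = 0.0434).

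Set against its neighbour, Inhbe was lower in most old livers. Per kilobase of exon, the ratio of Inhbe to Inhbc was 1.94, 1.16, 1.28, 0.857 and 1.08 in young WT. It was 0.952, 0.804, 0.718, 0.333 and 0.611 in old WT and 0.434, 0.758, 1.02, 0.482 and 0.487 in old KO. Inhbe exceeded Inhbc in 4 of 5 young livers, in none of the 5 old WT livers and in 1 old KO liver. The mean log2 ratio was 0.28 ± 0.433 (SD, n = 5), −0.63 ± 0.582 and −0.73 ± 0.524. The difference in mean log2 ratio was −0.91 with age and −0.1 with genotype, and exact 2-sided permutation tests of 5 against 5 gave p = 0.0159 and p = 0.786 (0.0238 and 0.786 adjusted over the 3 comparisons). The ratio was chosen after its values had been seen, so these p-values are no independent support. Without old WT 7, the lowest, the difference with age was −0.68.

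Inhbb (chr1:121312042-121318825, minus strand) and Inhba (chr13:16103684-16119044, plus strand) encode the subunits of activins B and A. Inhbb stood at 8.9, 1.68, 2.05, 8.2 and 5.91 CPM in young WT. It stood at 2.12, 2.1, 3.85, 1.65 and 2.5 CPM in old WT and at 1.2, 1.45, 4.5, 1.17 and 3.25 CPM in old KO. In young WT 3 livers exceeded every old liver while the other 2 were as low as the old groups, so the young group was split. The log2 fold change with age was −1.13 ± 0.466 SE and did not pass (adjusted p = 0.102), though it did without young WT 2 (−1.36, adjusted p = 0.0499). For old KO against young WT it was −1.22 ± 0.475 SE (adjusted p = 0.0728), which DESeq2 called (−1.21, adjusted p = 0.0321). That comparison also passed without young WT 2 (−1.45, adjusted p = 0.0321), young WT 3 (−1.42, adjusted p = 0.0415) or old KO 4 (−1.61, adjusted p = 0.0354). With genotype the difference was −0.1 ± 0.485 SE (adjusted p = 0.971).

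Inhbb is also made by adipocytes. Of the 8 mesothelial and adipocyte markers 5 were abundant enough to be tested, and only Cidec, a lipid droplet protein of adipocytes and of fatty hepatocytes, was called, at 45.8 ± 42.8 CPM in young WT and 4.99 ± 4.48 CPM in old WT. The log2 fold change of Cidec with age was −3.21 (edgeR adjusted p = 0.0036). The other 4, the mesothelial markers Msln, Upk3b, Wt1 and Gpm6a, had log2 fold changes of 0.19, 0.8, 1.4 and 0.69 with age and did not pass. The adipocyte markers Adipoq, Plin1 and Lep were too scarce to be tested, and the part of adipose cells in the Inhbb values was not tested.

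Inhba ranged from 2.67 to 4.96 CPM (median 3.29) in young WT, 3.49 to 4.37 CPM (median 3.64) in old WT and 2.83 to 4.97 CPM (median 3.99) in old KO. The old WT livers fell inside the spread of both other groups. Log2 fold changes were 0.05 ± 0.186 SE with age (interval −0.34 to 0.45) and 0.07 ± 0.187 SE with genotype (interval −0.32 to 0.47), with adjusted p of 0.866 and 0.935.

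Fst (chr13:115242470-115249159, minus strand), the activin-binding antagonist, varied most of the 10 genes, relative to its mean, among the old WT livers. It stood at 4.32, 7.97, 7.3, 3.04 and 1.47 CPM in young WT. It stood at 1.5, 2.03, 0.775, 22.9 and 1.69 CPM in old WT and at 2.7, 4.36, 1.63, 3.52 and 1.76 CPM in old KO. Old WT 7 held 624 Fst reads, more than any other library, while the other 4 old WT livers were all below 4 of the 5 young livers. With all libraries the means were 4.82 ± 2.77, 5.77 ± 9.57 and 2.79 ± 1.16 CPM, and the log2 fold change was 0.24 ± 0.736 SE with age and −1.03 ± 0.765 SE with genotype (adjusted p = 0.848 and 0.661).

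Both directions rested on old WT 7. Without it the old WT mean was 1.5 ± 0.529 CPM (SD, n = 4), the log2 fold change with age became −1.69 ± 0.443 SE and passed (adjusted p = 0.0161), and that with genotype became 0.91 ± 0.449 SE and did not (adjusted p = 0.459). The same library stood apart in other genes of the group. It had the lowest Inhbe of all 15 livers (17.2 CPM) and the lowest Inhbc of old WT (47.5 CPM), and the highest Tgfb2, Tgfb3, Tgfbr1 and Tgfbr2 of old WT. Its depth was the lowest of old WT at 27063911 counts, its stellate sum (216 CPM) was the median of its group, and its hepatocyte sum (153000 CPM) was the highest of the 10 WT libraries. Old KO against young WT, which does not use it in the means, gave −0.79 ± 0.764 SE for Fst (adjusted p = 0.487).

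The rest of the pathway was read from 6 lists of receptors, latency and activation proteins, antagonists, SMADs and their regulators, other ligands of the superfamily and TGF-beta response genes. They held 78 further genes, of which 64 were abundant enough to be tested. With age 8 of 64 were called, 5 higher and 3 lower, which is below the background of 18.8%, and the median log2 fold change was 0.03. With genotype none of 64 was called by edgeR, 4 had an unadjusted p under 0.05 and DESeq2 called none. Old KO against young WT gave 16 calls, 11 higher and 5 lower, near its background of 23.3%.

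SMADs and their regulators held the most calls relative to their number, with 3 of 15 higher in old WT and none lower. Over all genes 9.92% were called higher and 18.8% in either direction, so this share is near the background. Pmepa1, a TGF-beta-induced protein that sequesters SMAD2 and SMAD3, rose from 2.05 ± 0.114 CPM in young WT to 3.98 ± 0.768 CPM in old WT (log2 fold change 0.96 ± 0.155 SE, adjusted p = 0.00109). All 5 old WT livers (3.31 to 5.22 CPM) and all 5 old KO livers (2.96 to 4.53 CPM) lay above the young range of 1.89 to 2.18 CPM, and the call held in each of the 15 leave-one-out fits and under all 6 other alternatives. Smad6, an inhibitory SMAD induced mainly by BMP signals, rose from 5.41 ± 0.795 to 9.05 ± 1.81 CPM (0.74 ± 0.165 SE, adjusted p = 0.00659), again without overlap and in every alternative, and stood at 9.62 ± 1.96 CPM in old KO. Smurf2, a ubiquitin ligase that targets the receptors and SMADs, rose from 50.7 ± 3.2 to 60.3 ± 4.27 CPM (0.25 ± 0.0702 SE, adjusted p = 0.0222), a call that was lost without young WT 1, young WT 2, old WT 1 or old WT 10 (0.22 to 0.24, adjusted p 0.0506 to 0.0575) or with no filter on low counts (0.25, adjusted p = 0.0562). The signal-carrying Smad2, Smad3 and Smad4 had log2 fold changes with age of 0.05, 0.46 and −0.04, with adjusted p of 0.76, 0.0541 and 0.741, and Smad7, the main inhibitor of the TGF-beta receptors, 0.56 (adjusted p = 0.0759). In old KO against young WT, Smad3 (0.47, edgeR adjusted p = 0.044) and Smad7 (0.99, adjusted p = 0.00402) passed, while Smad2 and Smad4 did not. Smad2, Smad3, Smad4 and Smad7 are named after their values were seen.

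**Figure D4:**
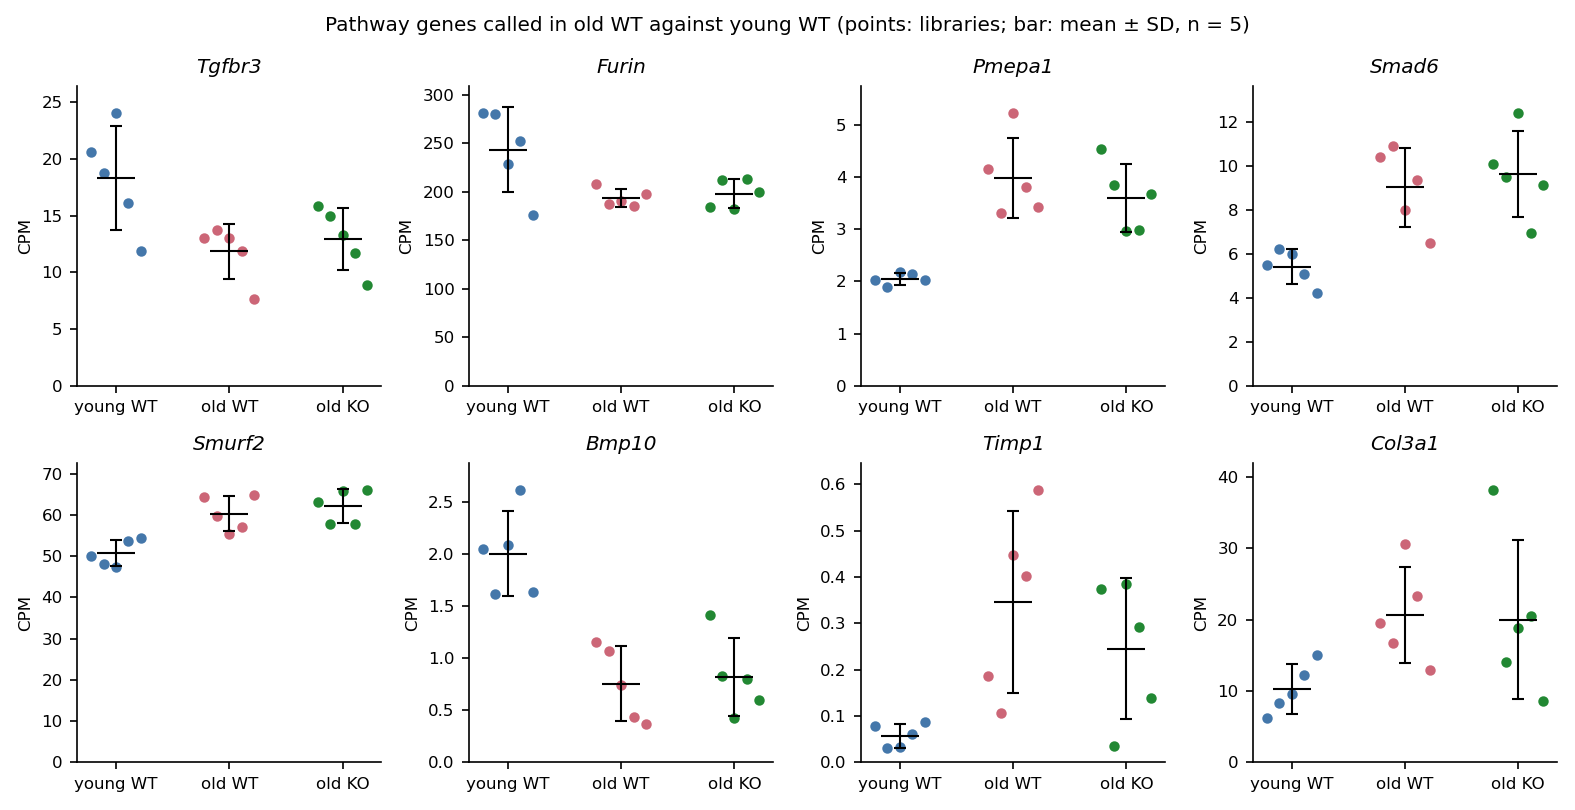
CPM of the 8 pathway genes called between old WT and young WT, in each liver (points) with mean ± SD per group (n = 5), on axes that start at 0. Pmepa1 in old WT (3.31 to 5.22 CPM) and Smad6 in old WT (6.51 to 10.9 CPM) do not overlap the young livers, and the old KO mean lies within the old WT range in all 8 panels.

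TGF-beta response genes gave 3 calls of 17 with age, all higher: Pmepa1, which this list also holds, Timp1 and Col3a1. Over all genes 9.92% were called higher and 18.8% in either direction, so this share is near the background. Col3a1, a fibrillar collagen of stellate cells and fibroblasts, stood at 10.3 ± 3.47 CPM in young WT, 20.6 ± 6.74 CPM in old WT and 20.0 ± 11.2 CPM in old KO, with a log2 fold change with age of 1.01 ± 0.334 SE (adjusted p = 0.0449). Leaving out any 1 of 10 libraries ended that call (young WT 1, 2, 3 or 4, old WT 1, 4, 5 or 7, or old KO 4 or 5), with log2 fold changes of 0.82 to 1.08 and adjusted p of 0.0534 to 0.121. Timp1, an inhibitor of matrix metalloproteinases, was called at 2.51 ± 0.594 SE (adjusted p = 0.00913) on 9 reads over the 5 young libraries and 51 over the 5 old WT libraries. It passed the filter on low counts only through its old livers, so its call is no support for a rise with age. Of the 6 alternatives other than leaving out a library, Timp1 was fitted in 5. Other genes of matrix and contractile cells did not pass with age and did not share a direction. Their log2 fold changes with age were 1.1 for Col1a1 and 0.16 for Col1a2 (adjusted p = 0.0589 and 0.69), 1.33 for Acta2 and 0.0 for Tagln (adjusted p = 0.0559 and 0.993), and −0.56 for Postn and 0.02 for Ctgf (adjusted p = 0.126 and 0.984). In old KO against young WT, Acta2 (1.73, edgeR adjusted p = 0.014) and Col1a1 (1.12, adjusted p = 0.0481) passed. Col1a2, Tagln, Postn and Ctgf did not pass there. These 6 are named after their values were seen.

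Receptors and co-receptors gave 1 call of 9. Tgfbr3 (betaglycan), a co-receptor that presents TGF-beta to Tgfbr2, fell from 18.3 ± 4.56 to 11.8 ± 2.41 CPM with age (log2 fold change −0.63 ± 0.193 SE, adjusted p = 0.0336) and stood at 13.0 ± 2.76 CPM in old KO. As with Tgfbr2, young WT 6 was the low young liver, at 11.9 CPM against 16.1 to 24.0 CPM in the other 4. The call was lost without young WT 1, 2 or 3 or old WT 1, 5, 7 or 10 (−0.66 to −0.5, adjusted p 0.0504 to 0.0897). Activin receptor genes Acvr1b, Acvr2a and Acvr2b, named after their values were seen, had log2 fold changes with age of −0.43, −0.08 and −0.09 (adjusted p = 0.0621, 0.454 and 0.822). In old KO against young WT, Acvr1b passed (−0.72, edgeR adjusted p = 0.00442), while Acvr2a and Acvr2b did not.

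Of the latency and activation proteins 1 of 13 was called. Furin, the convertase that cleaves the TGF-beta precursor, fell from 244 ± 43.3 to 194 ± 9.25 CPM with age (log2 fold change −0.33 ± 0.108 SE, adjusted p = 0.0437) and stood at 198 ± 14.8 CPM in old KO. The call was not stable, since it was lost in 12 of the 15 leave-one-out fits, all but those without young WT 6, old KO 1 or old KO 6 (−0.35 to −0.27, adjusted p 0.0518 to 0.115), as well as with no filter on low counts (adjusted p = 0.0683) and when old KO was kept out of the fit (adjusted p = 0.073). Of the other ligands of the superfamily 1 of 10 was called: Bmp10, a circulating ligand of the endothelial receptor ALK1, fell from 2.0 ± 0.41 to 0.755 ± 0.356 CPM (−1.4 ± 0.321 SE, adjusted p = 0.00774), and no old WT liver (0.368 to 1.16 CPM) reached the young range of 1.62 to 2.62 CPM. It stood at 0.817 ± 0.376 CPM in old KO, on 320, 114 and 103 reads over the young WT, old WT and old KO libraries.

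Of 10 antagonists and inhibin genes 4 were tested and none was called with age. Among the 6 that were too scarce to test were Inha, the inhibin alpha subunit, with 57 reads over the 15 libraries, and Fstl3, a relative of follistatin, with 34 reads. Inha and Fstl3 are named after their values were seen. For none of the 8 named pathway genes did old KO differ from old WT by a call, the adjusted p-values lying between 0.771 and 0.985.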

How the data were processed

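Poly(A) RNA of 15 whole livers was sequenced. The authors prepared stranded libraries, read 50 bases from 1 end, aligned them with TopHat2 2.0.11 to mm9 and deposited raw read counts per gene from HTSeq (submitters' processing notes and methods); the annotation and the strand setting of the counting are not given in the sources used here, so reads from a gene and an antisense partner may not be told apart. Groups and replicate numbers came from the sample titles. Here counts were scaled by TMM and filtered by filterByExpr in edgeR 4.0.16 (R 4.3.3), and 14258 genes were fitted with a quasi-likelihood model over all 15 libraries (common biological coefficient of variation 0.189). P-values were adjusted by Benjamini-Hochberg over all 14258 genes with a threshold of 0.05, intervals cover 95%, and SE is that of the log2 fold change. CPM used TMM-scaled library totals, and CPM per kb divided by the exon union of GENCODE M1 (NCBIM37, the mm9 assembly). Total counts of 21801754 to 38065359 make counting error small for abundant genes and larger for scarce ones such as Tgfb2, Tgfb3, Timp1 and Bmp10. Alternatives were DESeq2 1.42.0, RLE and upper quartile scaling, no filter, the libraries of a contrast alone, a replicate block and leaving out each library; scripts were tested on simulated counts. The titles do not state that replicate numbers pair the livers, so p-values treat the livers as separate samples.

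The 10 genes and the pathway and marker lists were chosen with earlier results of these data known. Named were the 10 genes, Rps6kb1, up to 4 called genes of a pathway list with age or genotype, and the 3 genes nearest to the called member with the largest change; all others are named as chosen after their values were seen or as markers. The hepatocyte marker Tf matched no single identifier and was left out, and Nrros was matched by a synonym. Promoters came from RefSeq on GRCm38.p6, while gene positions are on mm9.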

Additional observations from a re-analysis of the deposited data

Results flagged for a closer look

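Each of the 10 genes was checked in each of the 3 groups of 5 for a highest or lowest liver far from the other 4, in 30 checks. For independent, normally distributed values chance alone would single out about 1 in 20. These checks used unlogged CPM and shared the same livers, so that rate need not hold here. In 3 of the 30 checks a liver stood apart, all in old WT. Fst was 22.9 CPM in old WT 7, where the other 4 livers held 0.775 to 2.03 CPM. Inhbe was 17.2 CPM in the same library, where the others held 59.0 to 74.8 CPM. Inhba was 4.37 CPM in old WT 4 against 3.49 to 3.74 CPM in the others, a difference that lies within the range of young WT and old KO.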

How the results depend on the processing

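The age call of Tgfbr2 kept its side of the threshold under the 6 alternatives other than leaving out a library (log2 fold change −0.92 to −0.7, adjusted p 0.013 to 0.0488). Leaving out each library gave 0 to 2 genes of the 10 with age, 0 with genotype and 1 to 3 for old KO against young WT, where DESeq2 gave 2. Of the pathway genes, 13 were called with age by DESeq2, 2 with the replicate block and 4 to 10 with a library left out, and for old KO against young WT 10 with the block and 10 to 18 with a library left out. Over all genes the age calls numbered 899 with the block and 1748 to 3284 with a library left out, against 2685, and the genotype calls 309 by DESeq2, 6 with the block and 9 to 108 with a library left out, against 76. The replicate block dropped the libraries whose number occurs once (young WT 3, old WT 7 and old WT 10). Same-numbered livers did not deviate together (correlations −0.153 to 0.077), so the numbers were not used as a pairing. The titles do not say what the numbers stand for, and such correlations cannot exclude a shared litter or preparation. Under the block the age values turned to −0.54 for Tgfb2, −0.57 for Tgfb3 and −1.32 for Fst, and the genotype values to 0.01 for Tgfbr1, 0.06 for Tgfbr2, −0.01 for Inhba and 0.88 for Fst. Of the pathway genes called with age, 6 did not pass under the block: Tgfbr3 (−0.4, adjusted p = 0.0881), Furin (−0.36, 0.181), Smurf2 (0.25, 0.118), Bmp10 (−1.11, 0.11), Timp1 (1.12, 0.334) and Col3a1 (0.7, 0.457). With a library left out, uncalled values changed sign within these ranges: with age −0.03 to 0.16 for Tgfb1, −0.38 to 0.31 for Tgfb2, −0.2 to 0.31 for Tgfb3, −0.03 to 0.19 for Inhba and −1.69 to 0.53 for Fst. With genotype the ranges were −0.26 to 0.07 for Tgfbr2, −0.03 to 0.17 for Inhba, −0.49 to 0.13 for Inhbb, −1.32 to 0.91 for Fst and −0.34 to 0.04 for the log2 ratio of Inhbe to Inhbc, whose leave-one-out values were added after seeing the data, and for old KO against young WT −0.11 to 0.35 for Inhbc. Apart from Fst with age without old WT 7, no value that changed sign was past the threshold, and the cause of these changes was not tested. A separate test for genes too scarce to fit gave no value, since all 10 genes passed the filter. Of the 10 genes, depth limits Tgfb2 (3 to 32 reads per library) most, and of the pathway calls Timp1 (1 to 16 reads).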
